A study of Mus musculus with 23 samples.

Results

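The SWI/SNF chromatin remodeling subunits examined here were 10 genes, Smarca4, Smarca2, Smarcb1, Smarcc1, Smarcc2, Smarcd1, Smarce1, Arid1a, Arid1b and Arid2, of the 22619 named genes in the expression files. They were chosen by gene symbol as subunits of 1 family of complexes. No measured value entered that rule, though earlier results of these data were known when the members were chosen. The level of a gene was the sum of the FPKM of its annotated transcripts (FPKM: fragments per kilobase of transcript, scaled to the size of the library). The study mainly mapped nucleosomes in the male and female pronuclei of mouse zygotes soon after fertilization, untreated and treated. From these maps it predicted regulators and asked what 2 of them, Mlx and Rfx1, do in the first activation of the embryonic genome. Etv5 was silenced as a negative control. Its discussion names remodelers such as SWI-SNF as possible factors in later promoter remodeling. The part read here is its RNA-seq of zygotes and 2-cell embryos after knockdown (KD) of each factor. The study also mapped nucleosomes in parental pronuclei of KD embryos and recorded when KD embryos reached the 2-cell stage. The 23 libraries fell into 8 groups: 2-cell embryos with siRNA against Etv5 (n = 2), Mlx (n = 3) or Rfx1 (n = 3) or with control siRNA, siCtrl (n = 3), collected at 36 h post fertilization by the labels, and zygotes with the same 4 siRNAs (n = 3 each), collected at 14 h. All groups came from oocytes of B6D2F1 (C57BL/6 x DBA/2) females that the study's methods give as 8 to 10 weeks old. In every group, siCtrl included, siRNA was injected at the germinal vesicle stage, before the oocytes were matured in vitro and fertilized. The labels describe fertilization by incubation with sperm, whereas the methods describe sperm injection and slightly later collection times. The methods say that RNA-seq was performed several times for each group. Nothing states how many embryos a library holds or whether libraries of a group came from separate injection days. The p-values below therefore measure the spread between libraries, which may be technical.

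SWI/SNF complexes use ATP to slide or evict nucleosomes, which opens DNA to other factors. Each complex is built around 1 ATPase, Smarca4 (BRG1) or Smarca2 (BRM). The canonical BAF and PBAF forms have a core with Smarcb1, Smarcc1, Smarcc2 and Smarcd1, and the HMG-box protein Smarce1. The ARID-domain subunits separate these forms: Arid1a or Arid1b marks the canonical BAF complex and Arid2 the PBAF complex. In the mouse, BRG1 is known as a maternal factor of the oocyte that the zygote needs for normal activation of its genome, which is why the balance of stored and newly made subunit RNA is of interest at these stages.

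The promoters are shown because the silenced factors bind known DNA words: MLX an E-box (CACGTG), ETV5 an ETS site (CCGGAAGT) and RFX1 the palindromic X-box, whose left arm is GTTGCC. Each of the 10 genes had a window of 300 bases (250 before the annotated start and 50 from it, build mm9), with a second window for Smarca2, which has a second annotated start. Searched on both strands, none of the 11 windows held the E-box, the ETS site or the X-box, which occurred in 7.86%, 5.01% and 0.0731% of the 24609 windows of all genes. The X-box arm, which lies inside the X-box, occurred in 11.7% of all windows and in 1 window of the members, that of Arid1a, as its reverse complement, first base 40 bases into the transcript. No match says only that these letters are not in the window. The windows held 45.7% to 81.0% G and C, against a median of 56.7% over all windows. Below are the 30 bases of Arid1a with that match (chr4:133309477-133309506, minus strand, match in capitals) and the 250 bases before the start of the pair of ATPase genes that changed in opposite directions, Smarca4 (chr9:21420363-21420612, plus strand) and Smarca2 (chr19:26679400-26679649, plus strand), all from mm9 and written 5′ to 3′.
Arid1a: cgccgccgccagcagcctgGGCAACccgcc
Smarca4: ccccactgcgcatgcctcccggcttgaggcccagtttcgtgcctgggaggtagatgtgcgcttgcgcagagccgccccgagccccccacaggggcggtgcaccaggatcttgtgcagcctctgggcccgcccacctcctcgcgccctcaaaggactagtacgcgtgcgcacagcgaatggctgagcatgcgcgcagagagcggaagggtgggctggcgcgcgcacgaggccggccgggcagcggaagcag
Smarca2: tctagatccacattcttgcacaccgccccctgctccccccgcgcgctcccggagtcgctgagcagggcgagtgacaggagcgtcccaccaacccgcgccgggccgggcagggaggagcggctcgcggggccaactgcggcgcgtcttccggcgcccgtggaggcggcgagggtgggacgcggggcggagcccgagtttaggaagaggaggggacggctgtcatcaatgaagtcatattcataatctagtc

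The libraries differed in depth and in where along the members' transcripts the reads lay. Aligned bases on annotated transcripts were 404 to 967 Mb in the 2-cell libraries of Etv5 KD, Mlx KD and siCtrl and 484 to 991 Mb in zygotes, but 119 to 174 Mb in Rfx1 KD 2-cell embryos, where 7378 to 8071 genes reached 1 FPKM, against 10567 to 10729 in siCtrl 2-cell embryos. Over the members, coverage of the 3′ part of transcripts divided by that of the 5′ part was 1.01 to 2.70 in Etv5 KD, 1.39 to 2.22 in Mlx KD and 1.57 to 2.12 in Rfx1 KD zygotes, against 2.83 to 4.30 in siCtrl zygotes. In 2-cell embryos it was 3.20 to 3.24 in Etv5 KD, 0.81 to 2.71 in Mlx KD and 3.20 to 6.53 in Rfx1 KD, against 2.33 to 2.82 in siCtrl. Each KD zygote group lay below siCtrl (exact 2-sided permutation test, p = 0.1 for each, which is the lowest p possible with 3 libraries a side, and 0.24 adjusted over 12 tests). The ratio adds up the coverage of the members themselves, so Arid1a weighs heavily in it. Without Arid1a it was 0.59 to 1.48 in Etv5 KD, 0.93 to 1.55 in Mlx KD and 0.87 to 1.13 in Rfx1 KD zygotes. In siCtrl zygotes it was then 1.50 to 2.28, which Mlx KD overlapped. The silenced genes were lower in the KD than in the siCtrl libraries without overlap, except Mlx in 2-cell embryos (means of 2.39 and 3.22 rescaled FPKM), where the labels have no such check. Of these targets, Etv5 in Etv5 KD 2-cell embryos passed the test (15.9% of siCtrl, adjusted p = 0.022, limma). Over all genes tested, 9.64% to 20.8% lay lower without overlap in the KD comparisons. Rfx1 was also lower without overlap in Mlx KD zygotes (44.9% of siCtrl), Mlx KD 2-cell embryos (34.3%) and Etv5 KD 2-cell embryos (51.3%). In Rfx1 KD 2-cell embryos Rfx1 was at 26.4%, and Etv5 was lower without overlap there too (33.9%). Non-overlap was thus not particular to the silenced gene. The stage labels fitted the markers: a list of 12 oocyte genes summed to 5085 to 8664 FPKM in 2-cell libraries and 41838 to 81852 FPKM in zygotes. A list of 2-cell genes, 12 of 13 of them in the files, summed to 166 to 1621 FPKM in 2-cell libraries and 25.8 to 80.5 FPKM in zygotes, with Tcstv1 and Tcstv3 listed at 0 throughout. A list of 12 cumulus cell genes summed to 31.3 to 124 FPKM in 2-cell libraries and 6.58 to 17.7 FPKM in zygotes. Of these cumulus genes 4 were tested in siCtrl embryos, where Amhr2 (means of 40.02 rescaled FPKM in 2-cell embryos and 0.128 in zygotes), Tnfaip6 (11.1 and 0.209) and Nr5a2 (29.6 and 6.78, a gene that early embryos also express) were called higher in 2-cell embryos and Cyp19a1 (0.689 and 6.54) lower. Foxl2, Fshr, Inha, Amh, Ptx3 and Vim were listed at 0 in siCtrl 2-cell embryos, and the part of such cells in the stage differences was not tested.

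In siCtrl embryos, Arid1a was the member with the most RNA per transcript length at both stages, and the order below it differed between the stages. In deposited FPKM (SD, n = 3), siCtrl 2-cell embryos held Arid1a at 66.1 ± 3.12, Smarcc1 at 27.0 ± 9.34, Smarca4 at 22.3 ± 2.25, Arid2 at 17.8 ± 3.58, Smarcb1 at 13.6 ± 2.48, Smarce1 at 11.7 ± 1.45, Smarca2 at 10.2 ± 4.8, Arid1b at 6.56 ± 0.0825, Smarcd1 at 5.39 ± 1.83 and Smarcc2 at 2.23 ± 0.993. In siCtrl zygotes the order was Arid1a at 74.8 ± 7.26, Smarca2 at 31.7 ± 2.14, Smarcb1 at 18.96 ± 1.98, Arid2 at 16.7 ± 2.498, Arid1b at 16.1 ± 0.974, Smarce1 at 12.8 ± 3.29, Smarca4 at 5.23 ± 0.398, Smarcc2 at 2.73 ± 0.614, Smarcc1 at 2.45 ± 0.519 and Smarcd1 at 0.348 ± 0.301. In the 2-cell embryos the libraries of Arid1a lay clear of those of Smarcc1, those of Smarca2 clear of Arid1b and those of Smarcd1 clear of Smarcc2, and all other neighbours in the order overlapped. In the zygotes the clear steps were from Arid1a to Smarca2, from Smarca2 to Smarcb1, from Smarce1 to Smarca4, from Smarca4 to Smarcc2 and from Smarcc1 to Smarcd1, while the 4 genes Smarcb1, Arid2, Arid1b and Smarce1 overlapped with their neighbours. Levels between genes carry a bias of the assay: in transcripts of 5 FPKM or more, the median library covered 5.19% of exons of up to 100 bases and 94.9% of exons over 300 bases, so genes with few long exons read low. Smarcc1, with 28 exons, had 4 covered exons over 200 bases and Smarcd1 had 2, whereas Arid1a and Smarca4 had 9 each. The short exons could not tell isoforms apart, and for Smarca4, Smarcb1 and Smarcc2 the files placed all FPKM on 1 of the annotated transcripts.

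**Figure D1:**
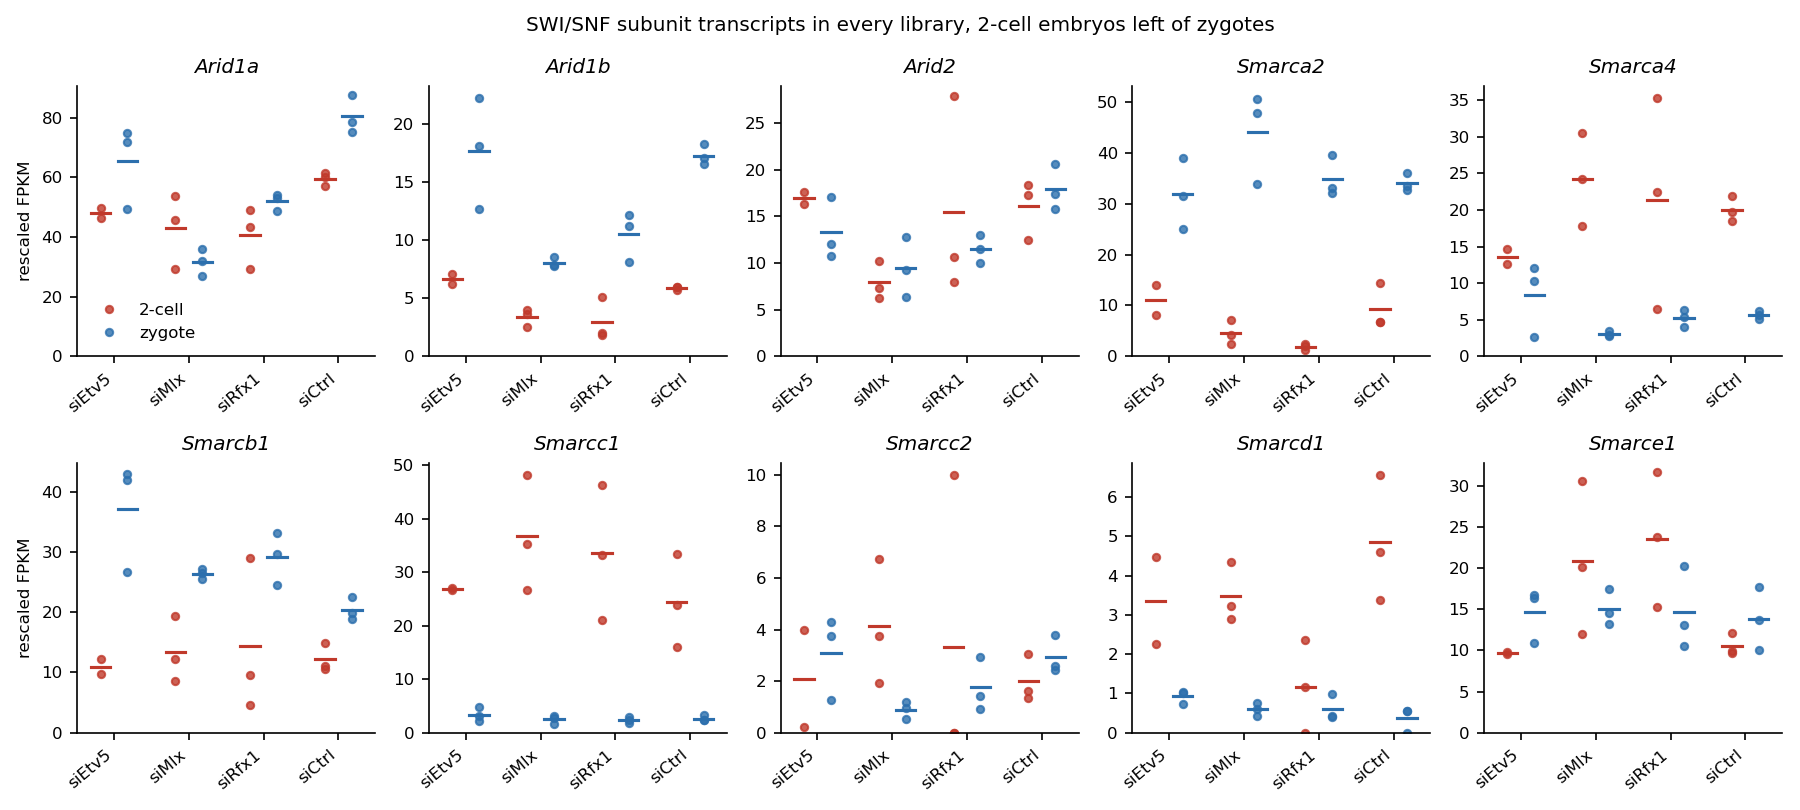
Rescaled FPKM (vertical axis, linear, from 0) of the 10 SWI/SNF subunits in each of the 23 libraries, by siRNA and stage (points, libraries; short lines, group means), rescaled within each pair of stages. Smarca4, Smarcc1 and Smarcd1 lie higher in siCtrl 2-cell embryos than in siCtrl zygotes, and Smarca2 and Arid1b lie lower.

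The question of the stage comparison was which subunits gained or lost RNA between the zygote and the 2-cell embryo. FPKM were rescaled within each comparison by the median ratio of genes detected in all its libraries, so siCtrl values differ slightly between comparisons, and a gene was called where its limma adjusted p (Benjamini-Hochberg over all genes tested) was under 0.05 and its fold change, on the log2(FPKM + 1) scale, above 2. In siCtrl embryos 5 of the 10 members were called, 3 higher in 2-cell embryos (Smarca4, Smarcc1 and Smarcd1) and 2 lower (Smarca2 and Arid1b). Smarcd1 reached the mean of 1 rescaled FPKM needed for testing only through its 2-cell values. The background was high: 63.9% of the 11094 genes tested were called, 37% higher and 26.9% lower, so this share is not particular to the members. Their median log2 fold change was -0.37, against 0.27 over all genes. In bulk libraries fewer cells of a type and less RNA per cell cannot be told apart, and the same holds for the amount of RNA per embryo, since the values are relative to the library.

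Of the ATPases, Smarca4 rose in 2-cell embryos. It had 19.7, 18.5 and 22.0 rescaled FPKM in siCtrl 2-cell embryos, against 5.08, 6.14 and 5.69 in siCtrl zygotes. The 3 2-cell libraries lay close together and far above the zygotes (log2 fold change 1.67, SE 0.20, adjusted p = 0.000165). Smarca2, the alternative ATPase, fell, with 6.65, 14.4 and 6.74 rescaled FPKM in siCtrl 2-cell embryos, against 36.1, 33.5 and 32.7 in siCtrl zygotes (log2 fold change -1.85, SE 0.30, adjusted p = 0.000769). The middle 2-cell library was the high one, and in it a short second transcript of Smarca2 was listed at 10.4 FPKM as deposited. That transcript was above 0 in 4 of the 23 libraries. Within a library the ratio of Smarca4 to Smarca2, which no rescaling touches, was 1.28 to 3.26 in siCtrl 2-cell embryos and 0.14 to 0.18 in siCtrl zygotes. In siCtrl embryos the ATPase with the higher FPKM was thus Smarca4 at the 2-cell stage and Smarca2 at the zygote stage. This order carries the exon-length bias between genes given above. In Etv5 KD 2-cell embryos the ratio was 0.90 to 1.79, so those libraries differed in which ATPase was higher, and in Rfx1 KD 2-cell embryos it was 3.23 to 30.3.

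The core subunit Smarcc1 (BAF155), a scaffold of the complex, had the largest log2 fold change among the members on the log2(FPKM + 1) scale. With a pseudocount of 0.1 or voom, that of the low gene Smarcd1 was larger (up to 4.14, against up to 3.12 for Smarcc1). Smarcc1 had 23.9, 33.4 and 16.0 rescaled FPKM in siCtrl 2-cell embryos, against 2.34, 2.30 and 3.27 in siCtrl zygotes (log2 fold change 2.76, SE 0.30, adjusted p = 9.59e-05). The 2-cell libraries differed by up to about the size of the lowest of them, yet all stood far above the zygotes. Its paralog Smarcc2 (BAF170) did not pass the test, with 1.64, 3.07 and 1.34 rescaled FPKM in siCtrl 2-cell embryos and 2.45, 3.77 and 2.61 in siCtrl zygotes, groups that overlapped (log2 fold change -0.41, adjusted p = 0.258). The ratio of Smarcc1 to Smarcc2 was 10.9 to 14.6 in the 2-cell and 0.61 to 1.25 in the zygote libraries.

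Smarcd1 (BAF60A), a core subunit that contacts transcription factors, rose in 2-cell embryos, and its zygote values lay near the detection limit. It had 3.38, 4.61 and 6.55 rescaled FPKM in siCtrl 2-cell embryos, against 0.565, 0 and 0.546 in siCtrl zygotes (log2 fold change 2.09, SE 0.33, adjusted p = 0.000678). Since Smarcd1 passed the filter through the 2-cell values, its call is not support for the direction. Smarcb1, the core subunit also called SNF5, had 10.6, 14.9 and 11.1 rescaled FPKM in siCtrl 2-cell embryos, against 19.8, 18.8 and 22.6 in siCtrl zygotes. These groups did not overlap, but the difference was under 2-fold (log2 fold change -0.71, SE 0.21, adjusted p = 0.0178) and was not called. Smarce1 overlapped between the stages, with 12.1, 9.71 and 9.96 rescaled FPKM in 2-cell embryos and 10.05, 17.7 and 13.7 in zygotes (log2 fold change -0.33, adjusted p = 0.27).

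Among the ARID subunits, Arid1b fell and the other two did not pass the rule. Arid1b had 5.98, 5.99 and 5.75 rescaled FPKM in siCtrl 2-cell embryos, against 17.1, 16.6 and 18.3 in siCtrl zygotes (log2 fold change -1.41, SE 0.19, adjusted p = 0.000337). Arid1a had 60.2, 57.2 and 61.3 rescaled FPKM in siCtrl 2-cell embryos, against 87.5, 75.3 and 78.6 in siCtrl zygotes, lower without overlap but under 2-fold (log2 fold change -0.43, SE 0.15, adjusted p = 0.0328). With FPKM as deposited the Arid1a groups overlapped (log2 fold change -0.17, limma adjusted p = 0.342). Arid2, of the PBAF form, had 12.5, 17.3 and 18.4 rescaled FPKM in 2-cell embryos and 20.6, 17.4 and 15.8 in zygotes, which overlapped (adjusted p = 0.539). In all, 3 members were higher and 4 lower without overlap, where 42.1% and 33.2% of all genes tested were. The ratio of Arid1a to Arid1b was 9.55 to 10.7 in siCtrl 2-cell embryos and 4.30 to 5.13 in siCtrl zygotes.

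The same exons were read at both stages, which shows where along the genes the differences lay. Of the covered exons over 200 bases, 9 of 9 of Smarca4 and 4 of 4 of Smarcc1 had the higher mean in siCtrl 2-cell embryos, without overlap in 6 and 4 of them. Smarca4 had coverage of 63.3 in 2-cell embryos and 16.7 in zygotes at exon 4, and 38.1 and 7.40 at its last exon, 34 (rescaled to the FPKM scale). Smarcc1 had 115 and 22.7 at exon 1, and 23.5 and 2.10 at its last exon, 28. Both genes were thus higher at the beginning and at the end of the transcript. Smarca2 was lower in 8 of 8 such exons, 7 without overlap, with 27.5 in 2-cell embryos and 185 in zygotes at exon 28 and 25.2 and 119 at exon 33. For Smarcd1 the difference lay at the last exon, 13, with 7.91 in 2-cell embryos and 0.12 in zygotes, while exon 1, with 8.53 and 4.58, overlapped between the stages.

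**Figure D2:**
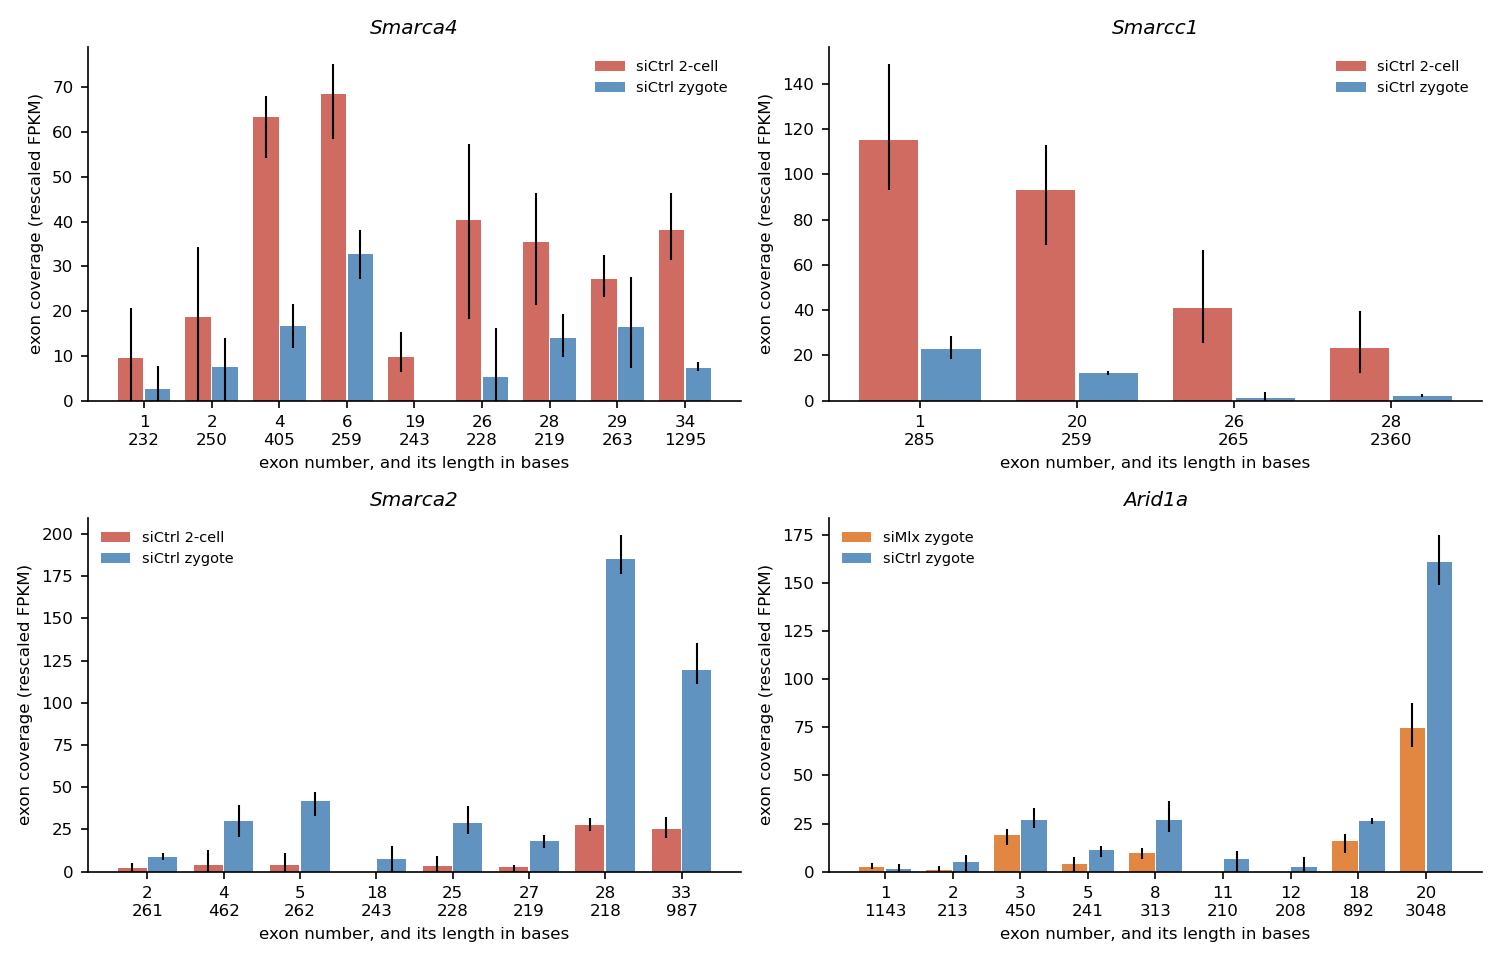
Coverage of the exons over 200 bases of Smarca4, Smarcc1, Smarca2 and Arid1a, rescaled to the FPKM scale, in the groups named in each panel (bars, group means; black lines, lowest to highest library). Smarca4 and Smarcc1 exons are higher in siCtrl 2-cell embryos along the gene, Smarca2 exons are lower, and most of the Arid1a coverage lies in its last exon.

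The stage difference was then read in each KD background, in libraries that share none with the siCtrl comparison. Smarcc1 was higher in 2-cell embryos and called in 4 of 4 comparisons (log2 fold changes 2.71 to 3.41), and Smarca2 (-3.68 to -1.46) and Arid1b (-1.61 to -1.06) were lower and called in 4 of 4. Smarcd1 passed the filter in 3 comparisons through its 2-cell values, its zygote means being 0.371 to 0.937 rescaled FPKM in them, so its calls in those 3 (1.13 to 2.09) are not support for a shared direction. In Etv5 KD its call was lost without 3 of the 5 libraries. Smarca4 was higher without overlap in 4 of 4 (0.85 to 2.61) and called in 2, those of siCtrl and Mlx KD. Outside its last exon, its 2-cell coverage was 298% of the zygote coverage in siCtrl and 740% in Mlx KD, both without overlap. In Etv5 KD it was 127% and in Rfx1 KD 86.1%, where the groups overlapped. In Rfx1 KD the last exon was at 1990%, and 5 of 9 exons over 200 bases had the lower mean, 3 without overlap. The part of depth and of 3′ coverage was not tested. Arid1a, Arid2 and Smarce1 were called in none, though Arid1a in siCtrl embryos had an adjusted p under 0.05 with rescaled FPKM, not with FPKM as deposited.

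In Etv5 KD embryos 5 members were called between the stages, 2 higher and 3 lower, where 60.9% of genes were (37.9% higher and 23% lower). Without overlap, 3 were higher and 4 lower, as were 45.7% and 30.6% of genes. Smarcb1 was among them, with 12.2 and 9.71 rescaled FPKM in Etv5 KD 2-cell embryos, against 42.0, 26.7 and 42.9 in Etv5 KD zygotes (log2 fold change -1.65, adjusted p = 0.00567). By exons, its 2-cell coverage was 108% of the zygote coverage at the last exon and 18.1% elsewhere, lower without overlap. Smarcd1, called higher, had 5.74 in 2-cell embryos and 0.16 in zygotes at its last exon, but 47.0% elsewhere, lower without overlap. The part of the 3′ to 5′ ratio in these values was not tested. Smarca4 had 14.7 and 12.6 in 2-cell embryos and 10.3, 2.58 and 12.1 in zygotes, without overlap and without a call (adjusted p = 0.244), and 1 zygote library was far below the other two. Leaving out Etv5 KD 2-cell replicate 1 left 1 call and leaving out replicate 2 left 3, so this count depends on both 2-cell libraries. Without replicate 1 the calls of Arid1b, Smarca2, Smarcb1 and Smarcd1 were lost, without replicate 2 those of Arid1b and Smarcb1, and without zygote replicate 1 or 3 that of Smarcd1.

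In Mlx KD embryos 6 members were called, 4 higher and 2 lower, where 64.5% of genes were (35.4% higher and 29.1% lower). Without overlap, 4 were higher and 3 lower, as were 38.2% and 33% of genes. Smarca2 had 2.43, 4.20 and 7.12 rescaled FPKM in Mlx KD 2-cell embryos, against 47.9, 34.0 and 50.7 in Mlx KD zygotes (log2 fold change -3.08, adjusted p = 0.00017). Smarca4 had 30.6, 24.3 and 17.8, against 3.52, 2.94 and 2.74 (log2 fold change 2.61, adjusted p = 0.000129). Both ATPases were thus further apart between the stages than in siCtrl embryos, and the Smarca4 to Smarca2 ratio was 2.51 to 12.6 in 2-cell embryos and 0.05 to 0.09 in zygotes. Neither difference from siCtrl embryos passed its own test, the interaction given further on. Smarcc2 was called here, with 6.75, 3.75 and 1.92 rescaled FPKM in 2-cell embryos, against 1.21, 0.944 and 0.552 in zygotes (log2 fold change 1.34, adjusted p = 0.0165). It passed the filter through its 2-cell values, and the call was lost without zygote replicate 2 (adjusted p = 0.0525) or 3 (adjusted p = 0.0678). Arid1b was called (log2 fold change -1.06, adjusted p = 0.00956), but not with FPKM as deposited (-0.73, adjusted p = 0.101) nor without 2-cell replicate 1 (-0.79, adjusted p = 0.025).

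In Rfx1 KD embryos 3 of the 9 members tested were called, 1 higher and 2 lower, where 48.4% of genes were (18.7% higher and 29.7% lower). Without overlap, 2 were higher and 2 lower, as were 24.2% and 34.6% of genes. Smarca2 had 2.33, 2.00 and 1.16 rescaled FPKM in Rfx1 KD 2-cell embryos, against 39.5, 32.2 and 33.1 in Rfx1 KD zygotes (log2 fold change -3.68, adjusted p = 0.000571). Smarcc1 had 46.3, 33.2 and 21.0, against 2.93, 1.79 and 2.34 (log2 fold change 3.31, adjusted p = 0.00131). Smarca4 had 22.4, 6.44 and 35.3, against 5.33, 3.97 and 6.32, so widely spread among the 2-cell libraries that it missed the threshold (log2 fold change 1.59, SE 0.64, adjusted p = 0.0823). It was called without 2-cell replicate 2, the lowest (2.30, adjusted p = 0.0059), as was Smarcb1 without 2-cell replicate 1 (-1.80, adjusted p = 0.0131). Smarcc2 shows the limit of the shallow 2-cell libraries, with 0, 9.98 and 0 rescaled FPKM in them and 2.93, 1.44 and 0.916 in the zygotes. Smarcd1, with 0, 1.16 and 2.37 against 0.977, 0.421 and 0.405, did not pass the filter. Arid1b, called with all libraries (log2 fold change -1.61, adjusted p = 0.0223), lost its call without any 1 of the 3 zygote libraries (adjusted p 0.0526 to 0.0994).

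**Figure D3:**
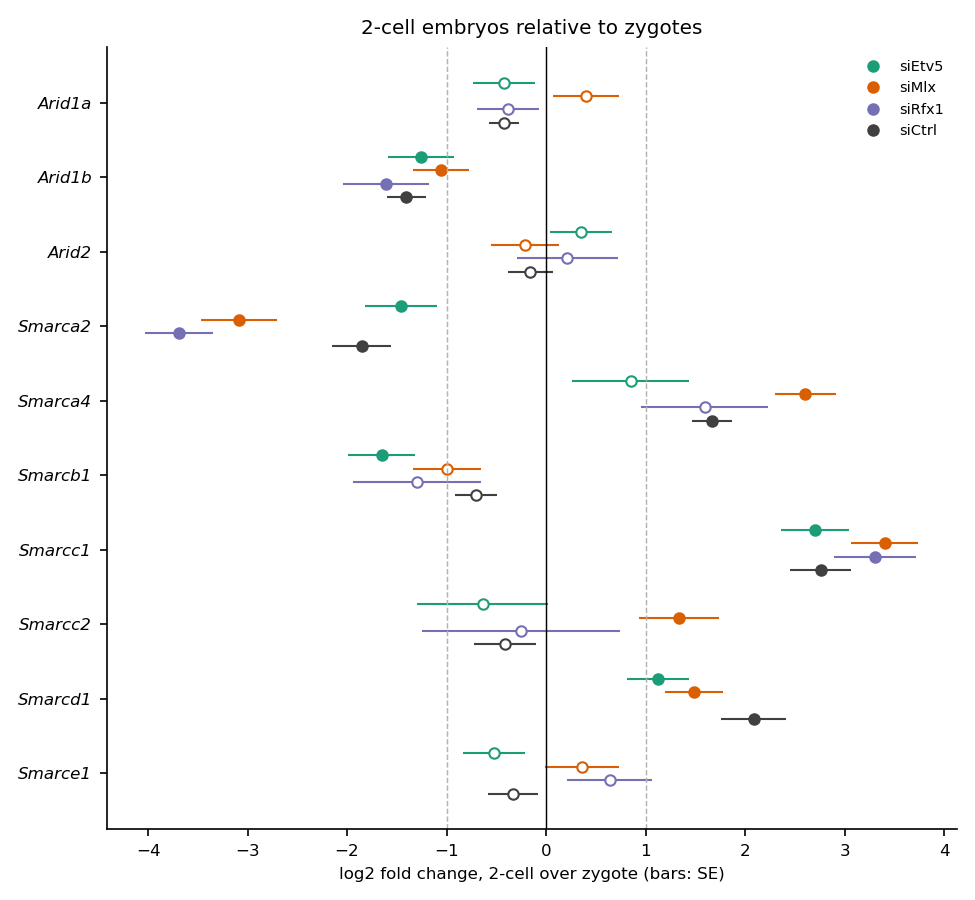
Log2 fold change (bars, SE) between 2-cell embryos and zygotes of each SWI/SNF subunit in the siEtv5, siMlx, siRfx1 and siCtrl series (filled points, called; open points, not called; dashed lines, 2-fold). Smarcc1 lies above the upper line, and Smarca2 and Arid1b below the lower line, in all 4 series.

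The other subunits of the family were read from a list of 20 genes. In siCtrl embryos 5 of the 15 tested rose in 2-cell embryos and 3 fell, with a median log2 fold change of -0.22 (0.27 over all genes). Over all genes tested, 37% were called higher and 26.9% lower, so such calls are common. Dpf2, a BAF subunit with PHD fingers, averaged 39.0 rescaled FPKM in 2-cell embryos and 4.8 in zygotes (log2 fold change 2.79). Pbrm1, the polybromo subunit of PBAF, averaged 7.48 and 1.46 (1.75), and Brd9 and Gltscr1l, subunits of the non-canonical form, averaged 33.0 and 12 (1.44) and 20.4 and 5.86 (1.62). Smarcd2, a paralog of Smarcd1, averaged 60.3 and 27.1 (1.11). Ss18l1, known in the mouse as a neuronal BAF subunit, averaged 2.56 in 2-cell embryos and 25.9 in zygotes (-2.99), Brd7, of PBAF, 6.57 and 24.6 (-1.75), and Dpf3, a paralog of Dpf2, 1.68 and 5.63 (-1.31). Pbrm1 and Brd7, which share the PBAF form with Arid2, were called in opposite directions, where 63.9% of all genes were called. In the KD series the numbers called higher and lower were 5 and 5 (Etv5 KD, 15 tested), 4 and 4 (Mlx KD, 14 tested) and 3 and 4 (Rfx1 KD, 15 tested). The shares over all genes were 37.9% and 23% (Etv5 KD), 35.4% and 29.1% (Mlx KD) and 18.7% and 29.7% (Rfx1 KD). Of other ATP-dependent remodelers in siCtrl embryos, 3 of 10 ISWI genes tested rose and 1 fell, 11 of 27 INO80, SRCAP and TIP60 genes rose and 7 fell, and of 9 CHD and other SNF2-family genes 1, Chd1, rose (log2 fold change 2.12) and 4 fell. These counts stand beside the same siCtrl shares over all genes, 37% higher and 26.9% lower. By likeness of the 8 group means on the log2(FPKM + 1) scale, each gene centred on its own mean, the genes nearest to Smarca4 among 6966 were Slc25a38, Rab11fip5 and Arf6, at mean absolute differences of 0.14, 0.15 and 0.17.

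The KD comparisons asked whether silencing a factor changed the subunits at a stage. The 3 comparisons of a stage share their siCtrl libraries, so they are given side by side and not counted as support of each other. In the 6 comparisons 1 call was made among the members, Arid1a in Mlx KD zygotes.

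In Mlx KD zygotes 1 of the 9 members tested was called, where 2.15% of 8934 genes were (1.13% higher and 1.02% lower). Arid1a, the DNA-binding subunit of canonical BAF, had 31.1, 27.7 and 35.3 rescaled FPKM in Mlx KD zygotes, against 70.6, 62.2 and 65.8 in siCtrl zygotes. Every Mlx KD library lay well below every siCtrl library (log2 fold change -1.06, SE 0.19, adjusted p = 0.0385), and the fold, 2.08, sat just past the threshold of 2. The call was lost whenever any 1 of the 6 libraries was left out (log2 fold change -1.15 to -0.97, adjusted p 0.0246 to 0.163, the lowest of them at a fold under 2), with no filter, and against Etv5 KD zygotes as the control (adjusted p = 0.233). With FPKM as deposited, 3 members were called lower: Arid1a, Arid1b (log2 fold change -1.08, adjusted p = 0.0161) and Smarcc2 (-1.05, adjusted p = 0.043).

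Its paralog Arid1b had 7.68, 8.0 and 8.43 rescaled FPKM in Mlx KD zygotes, against 13.8, 13.7 and 15.3 in siCtrl zygotes, well apart but short of a call (log2 fold change -0.75, SE 0.18, adjusted p = 0.0618). Arid2 had 9.11, 6.52 and 12.6, against 16.6, 14.3 and 13.2 (log2 fold change -0.63, adjusted p = 0.169). All 3 ARID genes therefore lay lower without overlap. Smarca4 (3.44, 3.04 and 2.69 in Mlx KD, against 4.10, 5.07 and 4.77 in siCtrl zygotes) and Smarcc2 (1.18, 0.973 and 0.542, against 1.98, 3.12 and 2.18) were the other members lower without overlap. The ATPase Smarca2 lay on the other side, with 46.9, 35.0 and 49.8 rescaled FPKM in Mlx KD zygotes, against 29.1, 27.6 and 27.3 in siCtrl zygotes (log2 fold change 0.61, adjusted p = 0.115). Smarcb1 did so too, with 24.9, 27.3 and 26.7, against 16.0, 15.5 and 18.9 (log2 fold change 0.62, adjusted p = 0.0949). Thus 2 members were higher and 5 lower without overlap, where 14.5% and 17.3% of all genes were. The members' median log2 fold change was -0.48, against 0.03 over all genes (-0.75 and -0.27 with FPKM as deposited). The stage markers moved in the same libraries: the 11 oocyte genes tested had a median of 0.65, with 2 called higher, and the 8 2-cell genes tested a median of 1.03, with 2 called higher. Their part in the members' values was not tested.

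Reads on Arid1a came mostly from its last exon, of 3048 of the 8175 transcript bases, which held 74.6% to 92.5% of its coverage in the libraries (median 87.4%). In Mlx KD zygotes that exon had 46.3% of the siCtrl coverage (74.4 against 161) and the other exons together had 57.8% (5.82 ± 1.59 against 10.1 ± 1.25, SD, n = 3 each, without overlap). Of the 9 exons over 200 bases, 8 had the lower mean in Mlx KD zygotes, 4 without overlap. The ratio of 3′ to 5′ coverage of the members without Arid1a was 0.93 to 1.55 in Mlx KD and 1.50 to 2.28 in siCtrl zygotes, and its part in the Arid1a difference was not tested. For Arid1b the last exon had 51.6% and the other exons 86.9% of the siCtrl coverage.

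**Figure D4:**
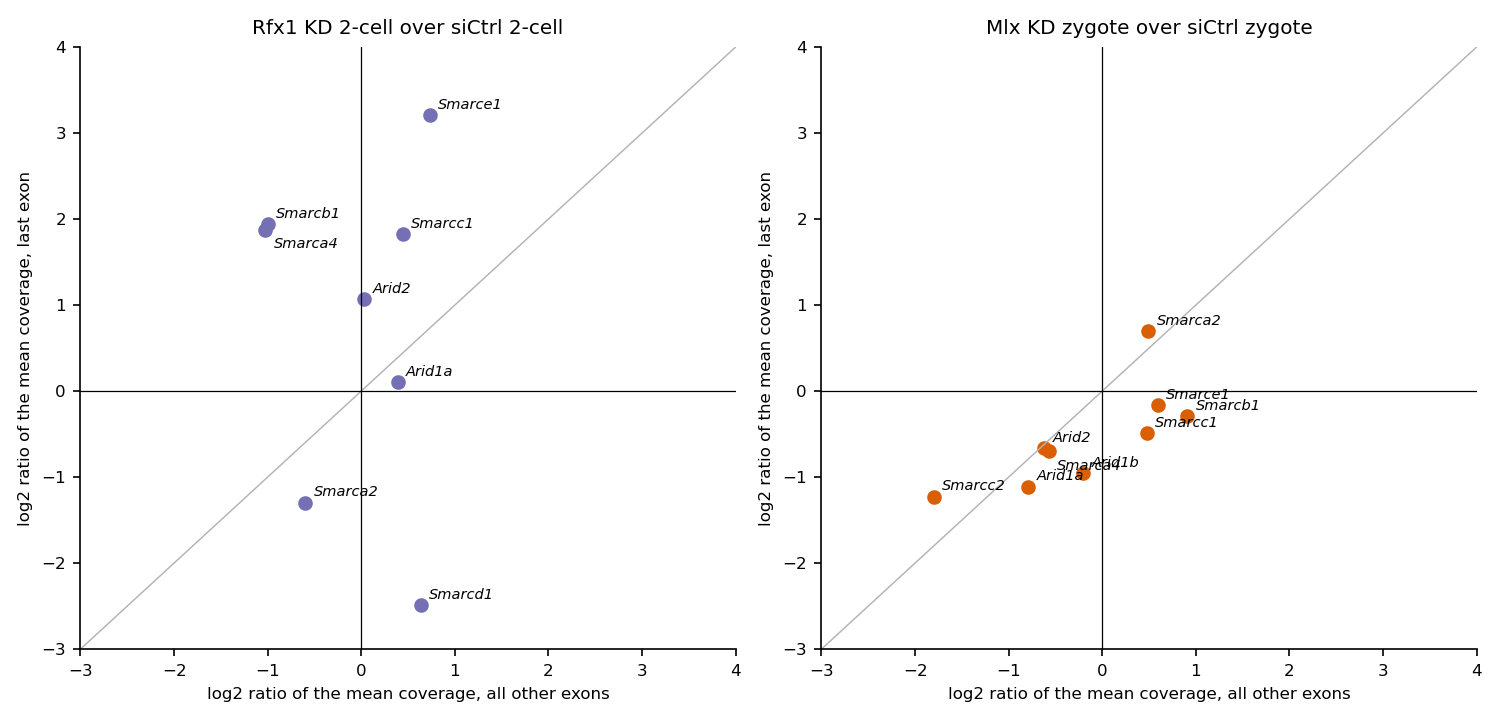
Log2 ratio of mean coverage, KD over siCtrl, of all other exons (horizontal axis) and of the last exon (vertical axis) for the members in Rfx1 KD 2-cell embryos (left) and Mlx KD zygotes (right). Grey lines mark equal ratios, and members with a mean of 0 on either measure (Arid1b and Smarcc2 on the left, Smarcd1 on the right) are not drawn. Arid1a in Mlx KD zygotes is below 0 on both axes, and Smarca4 in Rfx1 KD 2-cell embryos is above 0 for its last exon and below 0 for the other exons.

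In Rfx1 KD zygotes no member was called by limma, where 0.0557% of 8983 genes were (0.0445% higher and 0.0111% lower), and 4 of the 9 tested had an unadjusted p under 0.05 (limma-voom called 0). Here and below, except for Etv5 KD zygotes, counts at an unadjusted p stand without the share over all genes. They are not read as results about the members. Arid1a had 48.6, 52.9 and 51.5 rescaled FPKM in Rfx1 KD zygotes, against 74.4, 65.8 and 69.3 in siCtrl zygotes (log2 fold change -0.45, adjusted p = 0.256). Arid1b had 8.06, 11.0 and 11.8, against 14.5, 14.5 and 16.1 (log2 fold change -0.52, adjusted p = 0.281), and Arid2 had 11.4, 12.8 and 9.65, against 17.5, 15.2 and 14.0 (-0.43, adjusted p = 0.319). The 3 ARID genes lay lower without overlap, which 12% of all genes did, against the same siCtrl libraries as in the Mlx KD comparison. Smarcb1 had 29.5, 24.0 and 32.1, against 16.8, 16.4 and 19.9 (log2 fold change 0.65, adjusted p = 0.233), and with Smarca2 (39.4, 31.5 and 32.1, against 30.7, 29.2 and 28.8) it lay higher without overlap, which 9.8% of genes did. By exons, Arid1a had 70.3% of the siCtrl coverage at its last exon and 98.8% elsewhere. The 3′ to 5′ ratio of the members without Arid1a was 0.87 to 1.13 in these libraries and 1.50 to 2.28 in siCtrl zygotes, and its part was not tested.

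In Etv5 KD zygotes no gene of 8993 was called (0%), 1117 had an unadjusted p under 0.05, and voom called 1. Of the members, 1 of 9 tested had an unadjusted p under 0.05. That was Smarcb1, with 40.6, 25.9 and 43.8 rescaled FPKM in Etv5 KD zygotes, against 16.8, 16.5 and 19.8 in siCtrl zygotes (log2 fold change 0.98, SE 0.28, adjusted p = 0.321). It lay higher without overlap, which 9.07% of genes did, and no member lay lower, which 9.64% of genes did. Smarcb1 was above siCtrl in each KD zygote group, and in each the excess lay outside the last exon: that exon had 88.4%, 81.7% and 102% of the siCtrl coverage with siEtv5, siMlx and siRfx1, and the other exons 257%, 188% and 186%. The 3′ to 5′ ratio of all members was lower in the same libraries, and its part was not tested. Smarca4 had 9.98, 2.51 and 12.3 rescaled FPKM in Etv5 KD zygotes, against 4.31, 5.38 and 5.00, with 1 library on the other side of siCtrl. Smarcd1, which did not pass the filter in any zygote comparison, had 1.01, 0.992 and 0.758 in Etv5 KD zygotes, against 0.479, 0 and 0.48 in siCtrl zygotes.

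In 2-cell embryos no member was called by limma or by voom in any of the 3 KD comparisons. In Etv5 KD 2-cell embryos 0.251% of 11137 genes were called (0.0988% higher and 0.153% lower), and no member had an unadjusted p under 0.05. Arid1a had 51.4 and 55.5 rescaled FPKM, against 66.6, 60.8 and 67.7 in siCtrl (log2 fold change -0.28, adjusted p = 0.501), and Smarca4 had 16.3 and 14.1, against 21.9, 19.6 and 24.3 (-0.50, adjusted p = 0.38). These were lower without overlap, as were 16.7% of genes, and Arid1b, with 6.91 and 7.94 against 6.62, 6.37 and 6.35, was higher without overlap, as were 19% of genes.

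In Mlx KD 2-cell embryos 0.00945% of 10584 genes were called (1 gene, lower), and 2 members had an unadjusted p under 0.05. Smarce1, the HMG-box subunit, had 40.7, 24.8 and 14.7 rescaled FPKM in Mlx KD 2-cell embryos, against 12.4, 9.75 and 10.1 in siCtrl 2-cell embryos (log2 fold change 1.13, adjusted p = 0.194). Its values ranged nearly 3-fold among the Mlx KD libraries, and the highest came from the shallowest of them (404 Mb). Smarcc1 had 64.1, 43.5 and 32.7, against 24.5, 33.6 and 16.2, which overlapped (log2 fold change 0.90, adjusted p = 0.245). Arid1b, with 3.39, 4.87 and 4.48 against 6.12, 6.02 and 5.82, and Arid2, with 8.24, 9.02 and 12.5 against 12.8, 17.4 and 18.6 (log2 fold change -0.66, adjusted p = 0.301), were lower without overlap, as were 15% of genes, and Smarce1 alone was higher, as were 10.9%. The 10 2-cell markers tested had a median of -1.40 in these libraries, and their part was not tested.

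In Rfx1 KD 2-cell embryos 3.56% of 10302 genes were called (2.12% higher and 1.45% lower). The median log2 fold change was 0.27 over the members and -0.25 over all genes, and both were below 0 with FPKM as deposited (-0.34 and -0.85), where 8 of the 10 members lay below 0. The 11 oocyte markers tested had a median of 0.68, with 4 called higher, and the 10 2-cell markers tested a median of -0.51. Their part in the members' values was not tested. Smarce1 had 32.9, 22.2 and 45.2 rescaled FPKM in Rfx1 KD 2-cell embryos, against 10.7, 8.35 and 8.85 in siCtrl 2-cell embryos (log2 fold change 1.69, SE 0.48, adjusted p = 0.0956). Smarcc1 had 64.1, 48.5 and 29.95, against 21.1, 28.7 and 14.2 (log2 fold change 1.11, adjusted p = 0.214). These, with an unadjusted p under 0.05, were the 2 members higher without overlap, as were 10.4% of genes. Smarca2 had 3.23, 2.92 and 1.66, against 5.87, 12.4 and 5.99 (log2 fold change -1.29, SE 0.61, adjusted p = 0.254), lower without overlap as were 20.8% of genes.

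The remaining members varied most in these shallow libraries. Smarca4 had 31.1, 9.41 and 50.3 rescaled FPKM in Rfx1 KD 2-cell embryos, against 17.4, 15.9 and 19.5 in siCtrl, so that 2 libraries lay above and 1 below every siCtrl library. Smarcd1 had 0, 1.69 and 3.37, against 2.98, 3.96 and 5.82, and Smarcc2 was listed at 0 in 2 of the 3 libraries and at 14.6 in the other. With FPKM as deposited, the log2 fold changes of Smarca4, Smarcb1, Arid1a and Arid2 turned from above to below 0 here, none of them called. At the last exon Smarca4 had 367% of the siCtrl coverage (123 against 33.5) and over its other exons 49.1% (6.65 against 13.6, lower without overlap). Smarcb1 had 384% at the last exon and 50.1% elsewhere. Smarce1 had 924% at the last exon and 166% elsewhere, where the groups overlapped. The 3′ to 5′ ratio of the members was 3.20 to 6.53 in Rfx1 KD and 2.33 to 2.82 in siCtrl 2-cell embryos, and its part and that of depth in these values were not tested.

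**Figure D5:**
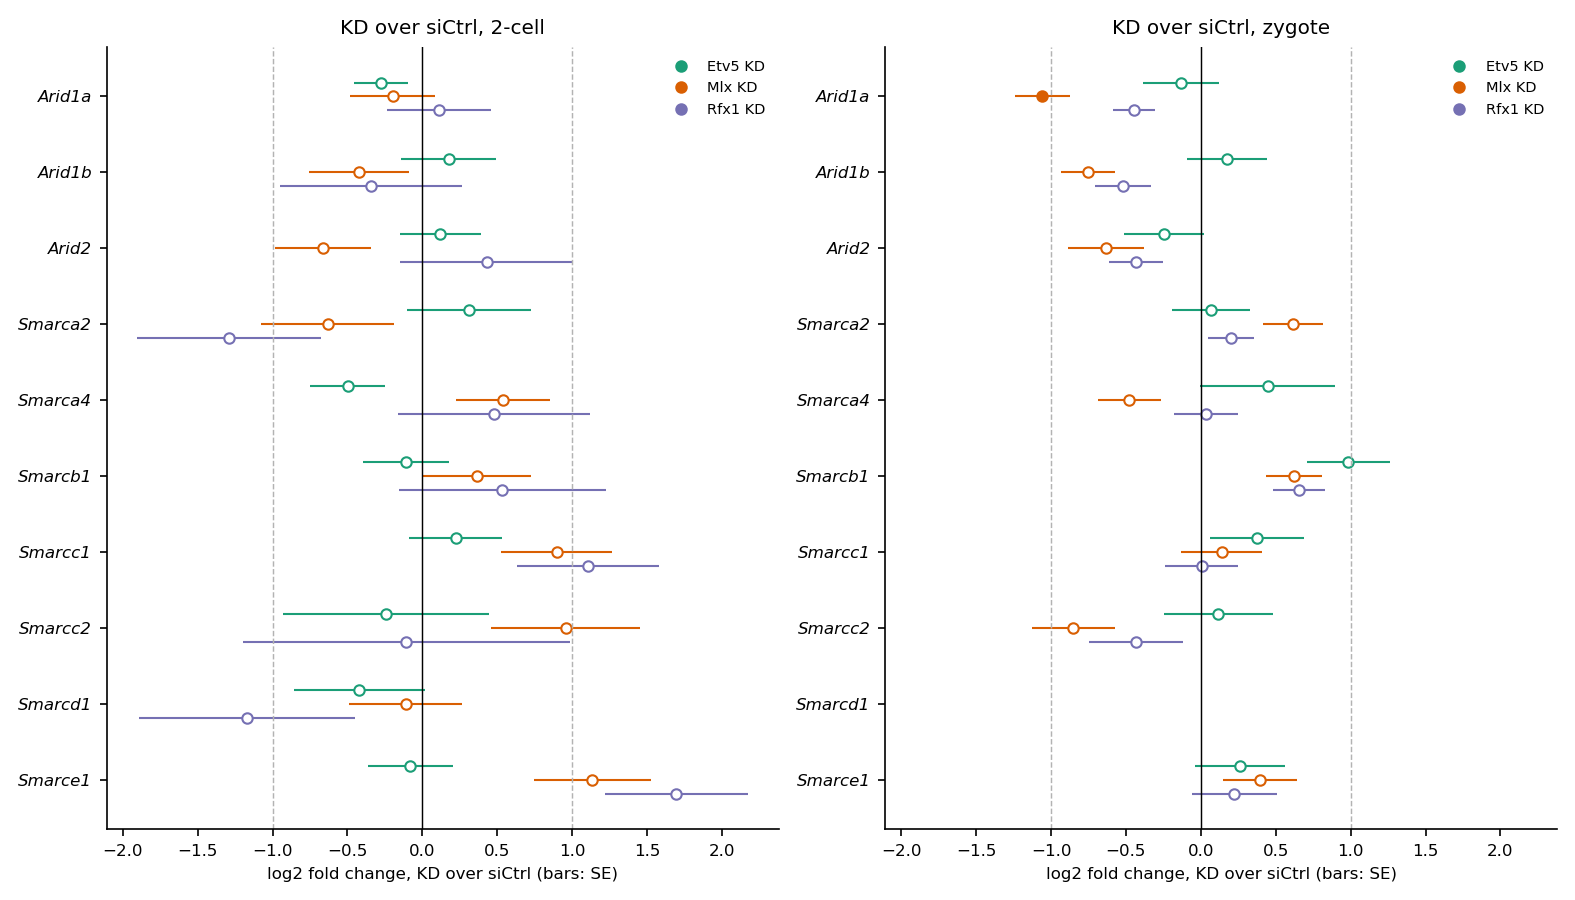
Log2 fold change (bars, SE) of each SWI/SNF subunit between each KD and siCtrl in 2-cell embryos (left) and zygotes (right) (filled points, called; open points, not called; dashed lines, 2-fold). Arid1a in Mlx KD zygotes is the filled point, and Smarce1 has the highest value, 1.69, in Rfx1 KD 2-cell embryos.

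Whether a KD changed the stage difference was tested by an interaction, the KD difference in 2-cell embryos minus that in zygotes. No member was called for Etv5 KD (0.316% of 11060 genes were, 0.0995% positive and 0.217% negative), with the largest value for Smarcb1 (-1.12, adjusted p = 0.172) and 2 members with an unadjusted p under 0.05. No member was called for Mlx KD (1.16% of 10787 genes were, 0.195% positive and 0.964% negative), where 4 had an unadjusted p under 0.05 and the values were 1.78 for Smarcc2 (adjusted p = 0.124), -1.28 for Smarca2 (adjusted p = 0.236), 0.99 for Smarca4 (adjusted p = 0.192) and 0.82 for Arid1a (adjusted p = 0.282). Voom called no member in either. For Rfx1 KD, 1 member was called, where 9.96% of 10780 genes were (3.04% positive and 6.92% negative). That member was Smarca2, at -1.66 (SE 0.47, adjusted p = 0.0472). The call was lost without any 1 of the 6 siCtrl or the 3 Rfx1 KD zygote libraries (adjusted p 0.0533 to 0.111) and held without each Rfx1 KD 2-cell library. Smarca2 lay below siCtrl in Rfx1 KD 2-cell embryos and slightly above it in Rfx1 KD zygotes (log2 fold change 0.20, adjusted p = 0.57), and neither difference was called alone. Smarce1 was at 1.22 in the same test (adjusted p = 0.149).

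Of the 20 other SWI/SNF subunits 1 was called in the KD comparisons, in which 0% to 3.56% of all genes were called. Bcl7c, an accessory subunit, averaged 56.2 rescaled FPKM in Rfx1 KD 2-cell embryos and 253 in siCtrl 2-cell embryos (log2 fold change -2.14, adjusted p = 0.014). In the interaction tests Bcl7c was called for Etv5 KD (-2.09) and Rfx1 KD (-2.91), and its paralog Bcl7b for Rfx1 KD (-1.60). Among the other remodelers, Chd4, the ATPase of NuRD, was called in Mlx KD zygotes (-1.46), with Nfrkb (-1.74) and Mcrs1 (-1.14), subunits of INO80. In Rfx1 KD 2-cell embryos Baz1b (2.17), which pairs with an ISWI ATPase, Atrx (2.96), Mbtd1 (2.24) and Yeats4 (1.97) were called higher and Ino80b lower (listed at 0 in the KD libraries). None of the 3 factors' KD called a SWI/SNF ATPase gene at either stage, which says little where so few of all genes were called. Smarca2 was called in the Rfx1 KD interaction.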

How the data were processed

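Complementary DNA of whole embryos was amplified, sheared and sequenced, and the reads were not marked by strand. Per the labels and the study's methods, the authors aligned reads to mm9 with STAR 2.5.2b and estimated RefSeq transcripts with StringTie (1.3.4 in the submitters' processing notes, 1.3.3b in the file headers, and another version in the methods). The deposited files give each transcript's FPKM and coverage and each exon's coverage, as text in the attribute column, with no read counts, so the depth is given as coverage times length. The study's own count tables were not analysed here. Transcripts without a gene name (976 of 29306) were left out.

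FPKM were summed per gene and divided by a median-ratio factor set within each comparison over genes that reached 1 FPKM in each of its libraries. Genes with a mean of at least 1 were tested on log2(FPKM + 1), a scale that understates the change of low genes, with limma 3.58.1 (trend) in R 4.3.3. P-values were adjusted by Benjamini-Hochberg over all genes tested, and called genes had both a fold above 2 and an adjusted p under 0.05. The comparisons were 6 KD, 4 stage and 3 interaction ones, each with only the groups it names. Exon coverage was divided by the aligned bases and the same factor, for exons over 200 bases. The scripts were tested on simulated data. The alternatives were pseudocount 0.1, no filter, a filter at 5 FPKM, FPKM as deposited, the replicate number as a block, limma-voom on estimated fragments, the highest transcript alone, all 4 groups of a stage in 1 fit, siEtv5 as the control for siMlx and siRfx1, and each library left out. The members, the lists and the tests were chosen with earlier results of these data known. The rule for naming genes took all members, the silenced genes, the called genes of the other SWI/SNF list and, of each further remodeler list, up to 3 called genes with the largest changes. Not all genes that it allows are named. Sums, ratios and permutation tests used Python 3.11.15 (pandas 2.3.3, scipy 1.17.1).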

Additional observations from a re-analysis of the deposited data

Results flagged for a closer look

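Smarca2, the BRM ATPase, was the 1 member of 10 called in the interaction of Rfx1 KD with stage, where 9.96% of all genes were, and the call was lost under 12 of 19 alternatives. Its interaction value, the KD difference in 2-cell embryos minus that in zygotes, was -1.66 (SE 0.47, limma adjusted p = 0.0472). The KD difference alone was -1.29 in 2-cell embryos (3.23, 2.92 and 1.66 rescaled FPKM in Rfx1 KD, against 5.87, 12.4 and 5.99 in siCtrl) and 0.20 in zygotes (39.4, 31.5 and 32.1 in Rfx1 KD, against 30.7, 29.2 and 28.8 in siCtrl). Over all alternatives the value was -2.01 to -1.21 and the adjusted p 0.0233 to 0.111. It was smallest with the longer transcript alone, since the short transcript was listed mainly in siCtrl 2-cell replicate 2. The Rfx1 KD 2-cell libraries held 119 to 174 Mb of aligned bases, against 727 to 967 Mb in siCtrl 2-cell embryos, and the part of depth in this difference was not tested.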

How the results depend on the processing

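No member changed direction with a call. In Mlx KD zygotes, where 1 member (Arid1a) was called, the count was 3 with FPKM as deposited and 0 with no filter, with siEtv5 as the control and without each library in turn. In Rfx1 KD 2-cell embryos it was 1 with all 4 groups in 1 fit (Smarce1, adjusted p = 0.0353), against 0. Leaving out 1 library gave 1 to 5 members called between the stages in Etv5 KD (5 with all), 2 to 5 in Rfx1 KD (3 with all), 0 to 2 in the interaction of Etv5 KD, 0 to 1 in that of Mlx KD and 0 to 2 in that of Rfx1 KD (1 with all). The last was 0 with voom (adjusted p = 0.0599) and with the highest transcript alone (adjusted p = 0.0717). The 2 calls of the Etv5 KD interaction, Smarca4 and Smarcb1, came without zygote siEtv5 replicate 2, and that of the Mlx KD interaction, Smarcc2, without 2-cell siMlx replicate 3. For same-numbered replicates nothing but the number is given in common, and the correlations of their deviations were -0.13 to 0.27. With 2 or 3 libraries a group, such correlations cannot tell whether they shared an injection day. With the replicate block, 0 members were called in Mlx KD zygotes (Arid1a, adjusted p = 0.0541) 0 in the interaction of Rfx1 KD (adjusted p = 0.0712) and 2 between the stages in Rfx1 KD (Arid1b lost, adjusted p = 0.0693), and 6 between the stages in Etv5 KD (Smarca4 gained, adjusted p = 0.032). It changed no other call of a member. Over all genes the counts moved more: 1 to 683 in Mlx KD zygotes (192 with the settings used), 0 to 1331 in Rfx1 KD 2-cell embryos (367), 0 to 371 in Mlx KD 2-cell embryos (1), 1 to 37 in Etv5 KD 2-cell embryos (28), 0 to 66 in Etv5 KD zygotes (0) and 0 to 8 in Rfx1 KD zygotes (5). In the interactions they were 12 to 711 (35), 18 to 281 (125) and 476 to 2255 (1074) for siEtv5, siMlx and siRfx1. Between the stages they were 4824 to 7289 in siCtrl (7085), 3818 to 6955 with siEtv5 (6631), 4542 to 6891 with siMlx (6694) and 3418 to 5470 with siRfx1 (4885). The cause of these shifts was not tested. The limits are 2 or 3 libraries a group, values relative to each library, and reads from long exons, which leave genes with short exons and the shallow Rfx1 KD 2-cell libraries with few reads.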
